A study of Mus musculus with 12 samples.

Results

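The interferon-stimulated genes described here are 51 mouse genes chosen by symbol from a list that covers sensors, effectors, transcription factors and GTPases of the interferon response. The rule for membership uses no measured value, but the list was drawn up with earlier results of these data known. Of these, 49 had a row in the deposited table of 17576 genes. A total of 42 passed the filter on low values and were tested among 11435 genes. Mx1 and Mx2 were not analysed here. Zbp1, Oas2, Oas3, Ifit3, Cmpk2, Iigp1 and Trim30a had rows but stayed under the filter, with highest values in any library of 1.27, 0.22, 0.90, 1.31, 0.52, 0.40 and 1.11 RPKM in that order.

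RNA was measured in 12 libraries of C18-4 cells, an immortalized mouse line derived from spermatogonial stem cells, which the labels give as from the IRC mouse strain. The cells had been stably transfected in 4 groups of 3 libraries. The 3NC group carried the lentiviral vector LV3 with a control shRNA, and the KD group carried LV3 with a mixture of 3 shRNAs against lncRNA5251, a long non-coding RNA. The 5NC group carried the vector LV5 alone, and the OV group carried LV5 with full-length lncRNA5251. Every group therefore held a vector, no group was left untransfected, and the 5NC against 3NC comparison changes the vector and the control shRNA together, so that their parts cannot be told apart. No source used here says that the 3 libraries of a group came from separate cultures, so p-values measure the spread between these libraries, which may be technical. lncRNA5251 itself was not analysed here. In bulk RNA, fewer cells of a type and less RNA per cell cannot be told apart.

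Interferons are secreted proteins that cells release after sensing foreign nucleic acid. Binding of type I interferon to its receptor activates the kinases JAK1 and TYK2, which phosphorylate transcription factors of the STAT family, STAT2 among them. With IRF9 these form a complex that binds the interferon-stimulated response element (ISRE) in promoters, while STAT proteins activated by interferon gamma bind the gamma-activated sequence (GAS). The induced genes include the sensors and transcription factors of the pathway itself, so that the response feeds on itself, and effectors that degrade viral RNA, stop translation or attach the ubiquitin-like protein ISG15 to targets. In the testis, spermatogonia are known for a weaker interferon response than the somatic cells around them.

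The promoter letters that this pathway reads are shown first for 8 members whose values are given below, at least 1 from each class with such a promoter except the transcription factors. In each line 60 bases of the RefSeq promoter (build GRCm38.p6) are written 5′ to 3′ on the strand of the gene, and the capitals mark the first match in the promoter to the ISRE core letters GAAANNGAAA or their reverse complement.
Ddx58, chr4:40239789-40239848, minus strand: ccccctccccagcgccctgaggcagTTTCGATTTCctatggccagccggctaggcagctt
Oas1a, chr5:120907511-120907570, minus strand: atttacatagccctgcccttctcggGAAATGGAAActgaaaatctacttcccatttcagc
Ifit1, chr19:34640760-34640819, plus strand: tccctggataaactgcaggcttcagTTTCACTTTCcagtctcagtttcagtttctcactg
Rsad2, chr12:26456538-26456597, minus strand: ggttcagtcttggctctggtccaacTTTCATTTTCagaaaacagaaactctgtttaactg
Gbp2, chr3:142620579-142620638, plus strand: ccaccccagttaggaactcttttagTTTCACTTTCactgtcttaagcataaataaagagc
Gbp7, chr3:142530258-142530317, plus strand: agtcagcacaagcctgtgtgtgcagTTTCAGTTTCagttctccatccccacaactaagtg
Igtp, chr11:58199497-58199556, plus strand: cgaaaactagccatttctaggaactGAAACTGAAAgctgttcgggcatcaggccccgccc
Isg15, chr4:156200862-156200921, minus strand: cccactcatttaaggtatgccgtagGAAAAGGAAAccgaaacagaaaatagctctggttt

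The matches started at position -104 relative to the transcription start in Ifit1, -120 in Rsad2, -78 in Isg15, -59 in Gbp2, -53 in Gbp7, -34 in Igtp and -20 in Oas1a, and 2 bases after it in Ddx58. Promoters reaching from 250 bases before to 50 bases after the start were matched for 39 members by gene identifier. The ISRE letters stood in 19 of these 39 (48.7%) and in 3.99% of 27025 genes with a promoter of this length, or 3.74% of the 13760 of them that also had a row in the expression table. The GAS core letters TTCNNNGAA, searched on both strands, stood in 11 of the 39 (28.2%) and in 9.55% of all genes. Both stood in 6 members. A match is a description of these letters and is not a shown binding site. Some printed windows hold more than the match in capitals: Isg15 has 3 matches that overlap in turn, Oas1a has a second that overlaps the first and starts at -14, and Ifit1 has a second that starts at -85.

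**Figure D1:**
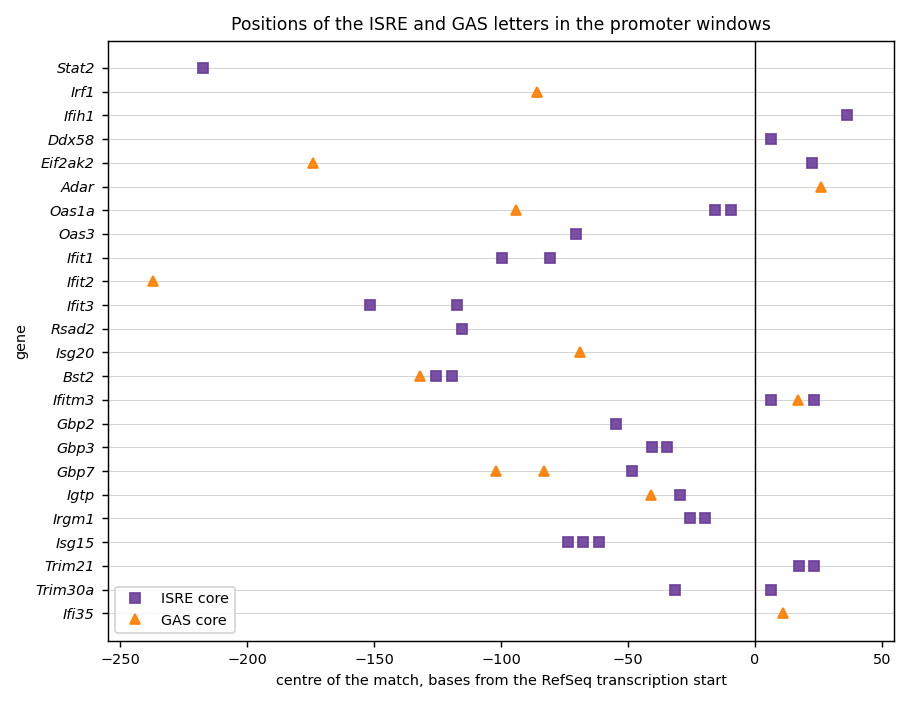
Positions of the ISRE core (squares) and GAS core (triangles) letters in RefSeq promoters, plotted as bases from the transcription start, for each member with at least 1 match. The ISRE letters of Ifit1, Rsad2, Isg15, Gbp2, Gbp7, Igtp and Oas1a lie before the start and those of Ddx58 just after it.

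Values were deposited as RPKM, a read count scaled by the length of the gene and by the mapped reads of the library, so that levels can be compared between genes. Changes below are log2 fold changes of RPKM + 1 with the standard error (SE), from one limma fit to all 12 libraries, and a gene was called when its Benjamini-Hochberg adjusted p was at most 0.05. The added 1 makes a fold change understate the change of a gene with a low level. Levels ranged widely among the members: Ifitm3, which blocks virus entry at membranes, reached 203.71 RPKM, Bst2, which tethers budding virus, reached 112.33, and Trim21 and Uba7 did not exceed 1.80 and 1.42 RPKM in any library.

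The cells were checked against marker genes before the comparisons. Of 15 spermatogonial markers with a row, Uchl1 and Etv5 were at 1 RPKM or more in every library, and 12, among them Gfra1, Ret, Zbtb16, Ddx4 and Dazl, stayed under 0.5 RPKM in every library, with 4 listed at 0 throughout. Most defining markers of spermatogonia were thus at or near 0 in cells labelled as a spermatogonial line. The 3 tested spermatogonial markers all fell in KD against 3NC, by -1.40 for Etv5, -0.40 for Id4 and -0.24 for Uchl1. In 5NC against 3NC Etv5 fell (-1.11) and Uchl1 rose (0.24), and in OV Uchl1 rose (0.34) while Etv5 and Id4 were not called. Their summed level, most of it Uchl1, was 82.6 to 91.3 RPKM in 3NC, 63.6 to 71.9 in KD, 93.7 to 97.6 in 5NC and 110 to 127 in OV. Of 9 Sertoli cell markers, Gata4, Wt1 and Clu were at 1 RPKM or more in every library, while 5, including Sox9 and Amh, stayed under 0.5. Clu rose in KD (0.85) and in 5NC against 3NC (1.05), Gata4 rose in 5NC against 3NC (0.23), and none of the 3 was called in OV. The KD effect on Clu exceeded its OV effect (0.72, adjusted p = 0.000653). The summed Sertoli markers were 59.1 to 60.3 RPKM in 3NC, 60.3 to 63.0 in KD, 65.3 to 67.7 in 5NC and 68.2 to 71.3 in OV. Among the leukocyte markers, Ptprc, Itgam, Csf1r, Fcgr1, Cd3e and Itgax stayed under 0.5 RPKM in every library, and Cd68 was at 1 or more in all. The summed leukocyte markers ranged from 5.4 to 6.92 RPKM in 3NC, 3.5 to 4.81 in KD, 2.70 to 3.18 in 5NC and 1.99 to 3.66 in OV, and without Cd68 and Cd14 from 0.03 to 0.75 over all libraries. Cd68 fell in KD (-0.70) and in 5NC against 3NC (-0.92). The part of these marker changes in the results below was not tested. Sums of RPKM per library lay between 533099 and 580920, Spearman correlations within a group between 0.987 and 0.990, and the relative depths read from steps in 53 low genes between 0.992 and 1.02. Those genes were kept only if their values lay near whole multiples of the lowest one, within a relative tolerance of 0.12. Larger differences of depth could therefore not be seen in this way. OV replicate 3 had an RPKM sum of 537526, against 580920 and 566543 in the other OV libraries, and counts without it are given below. The files give no absolute depth.

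In KD against 3NC, interferon-stimulated genes moved in both directions, with a few large falls and many small changes. Oasl1 and Oasl2, relatives of the oligoadenylate synthetases, fell most, and the ubiquitin-like Isg15, Ifit1, Rsad2 and Rtp4 fell with them. Sp100, a nuclear body protein, Ifit2, Oas1a and the RNA sensor Dhx58 rose. Of the 42 tested members, 13 rose and 12 fell, which is 31.0% and 28.6%, against 31.9% of all 11435 tested genes higher and 23.5% lower. The median change was 0.03 over the members and 0.04 over all genes. These counts and medians are near the background, so the members as a set did not stand apart from all genes here. The study called genes by a stricter threshold, a log2 fold change of 1 or more in size with an adjusted p no higher than 0.001. Here these cutoffs were put on the limma changes of RPKM + 1, which understate genes with low levels. The study used another method, so the counts are not its own calls. Past this threshold lay 2 members, Oasl1 and Oasl2, against 1.57% of all genes in either direction.

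In 5NC against 3NC, the comparison of the 2 control vectors, 33 of the 42 members had a change above 0, and 19 of these passed the test. Ifit1, Usp18, Gbp2, Tor3a, Lgals3bp, Gbp3 and Rsad2 rose most, and Ddx58, Stat2, Ifitm3, Trim25 and Ifi35 fell. This order leaves out Ifi44, which passed the filter only through 5NC, where it was high. Without it 18 members rose. Uba7, counted among these, also needed the 5NC libraries to pass the filter. Thus 45.2% of the members rose and 5 (11.9%) fell, against 31.0% of all genes higher and 25.6% lower. The median was 0.15 over the members and 0.02 over all genes. Ifit1 alone passed the threshold of the study, against 2.61% of all genes. This comparison shares its 3NC libraries with KD against 3NC and its 5NC libraries with OV against 5NC, so the values of the comparisons are set side by side and not related to each other.

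In OV against 5NC, no member rose and 28 of 42 (66.7%) fell, against 8.07% of all genes higher and 13.9% lower. Irf7, Ifit1, Usp18, Ifi27, Rsad2 and Gbp7 fell most, each by less than 1 on the log2 scale. This order leaves out Ifi44, which passed the filter only through 5NC, where it was high. Without it 27 members fell. The median change was -0.28 over the members and -0.03 over all genes, and 2 of the 42 had a change above 0. None passed the threshold of the study in this fit, and 0% of all genes did. By its own method the study reported genes both higher and lower in OV. At an unadjusted p under 0.05 there were 4240 genes in this comparison, 6910 in KD against 3NC and 7021 in 5NC against 3NC. After quantile normalization 15 members were lower and none higher, against 8.31% of all genes lower and 8.21% higher. The count of lower members also dropped to 15 without OV replicate 1, to 16 without OV replicate 2 or 5NC replicate 2 and to 18 without 5NC replicate 1. The share of all genes called lower dropped as well, to 5.45%, 5.1%, 5.54% and 8.84% in that order of libraries left out, while the median of the members stayed between -0.28 and -0.25. Without OV replicate 3, Irf1 in OV against 5NC was called higher, at 0.19, and 25 members and 21.9% of all genes were lower. Among the members given by library below, the calls of Irf7, Ddx58, Oasl2, Ifit1, Rsad2, Gbp3, Gbp7, Usp18, Parp9, Ifi27 and Lgals3bp passed with each library left out in turn.

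**Figure D2:**
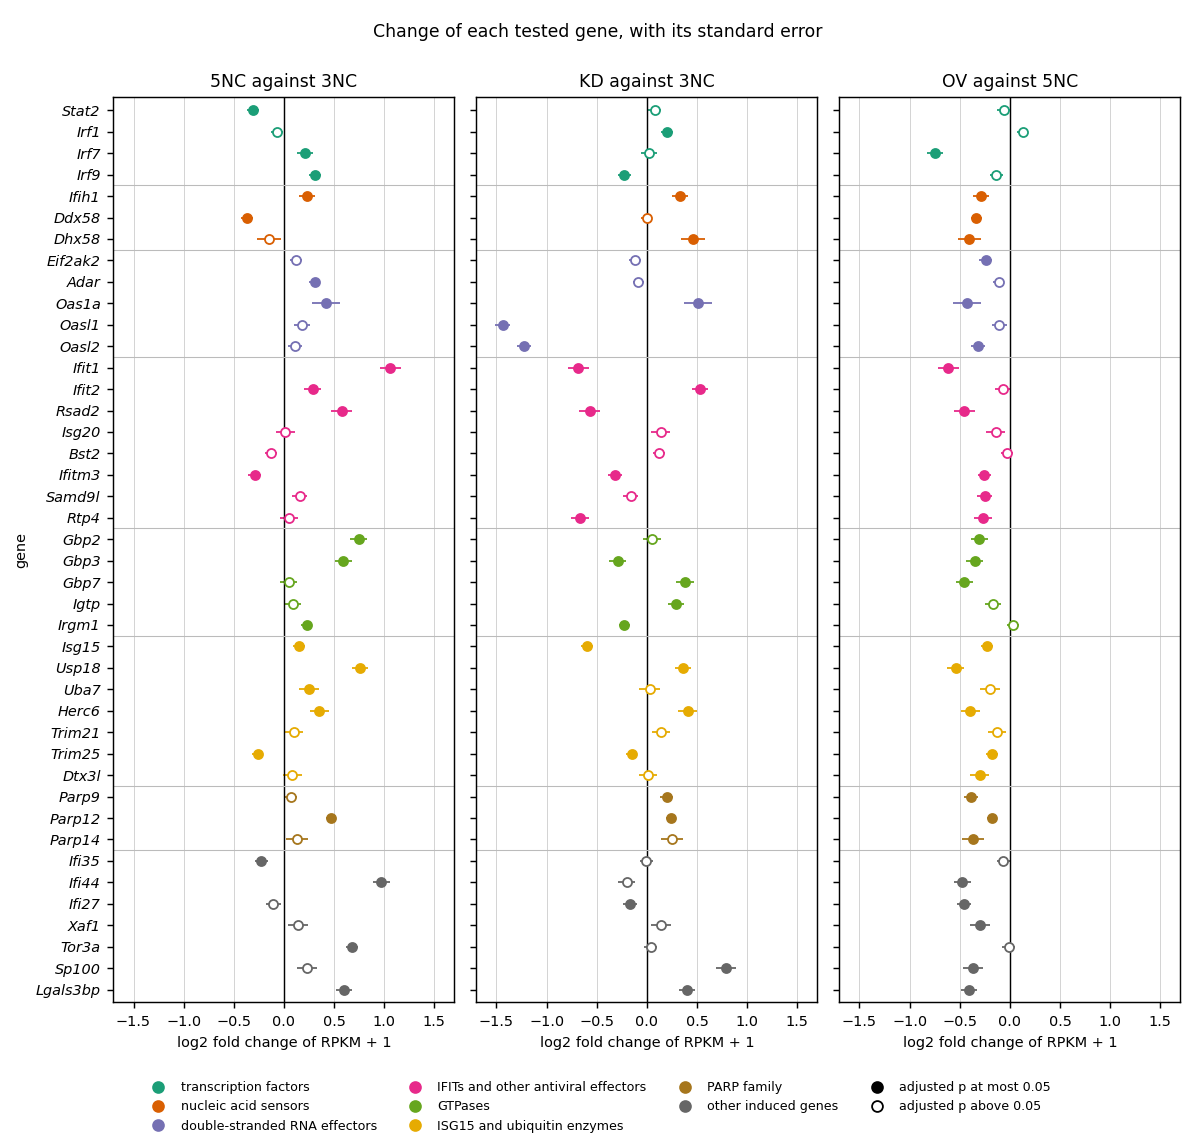
Log2 fold change of RPKM + 1 with its standard error for each of the 42 tested genes, grouped by class, in the 3 comparisons (3 libraries a group). Filled points had an adjusted p of at most 0.05. In OV against 5NC the filled points all lie below 0, and in KD against 3NC Oasl1 and Oasl2 lie farthest to the left.

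The level of the members by library is given by the median of log2(RPKM + 1) after each gene was centred on its mean over the 12 libraries. It was -0.03 to -0.01 in the 3NC libraries, 0.01 to 0.06 in KD, 0.15 to 0.17 in 5NC and -0.09 to -0.05 in OV. The OV libraries lay below those of 5NC by more than below those of 3NC, and the 5NC libraries lay above every other library. The same median over all tested genes ranged only from -0.02 to 0.03.

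**Figure D3:**
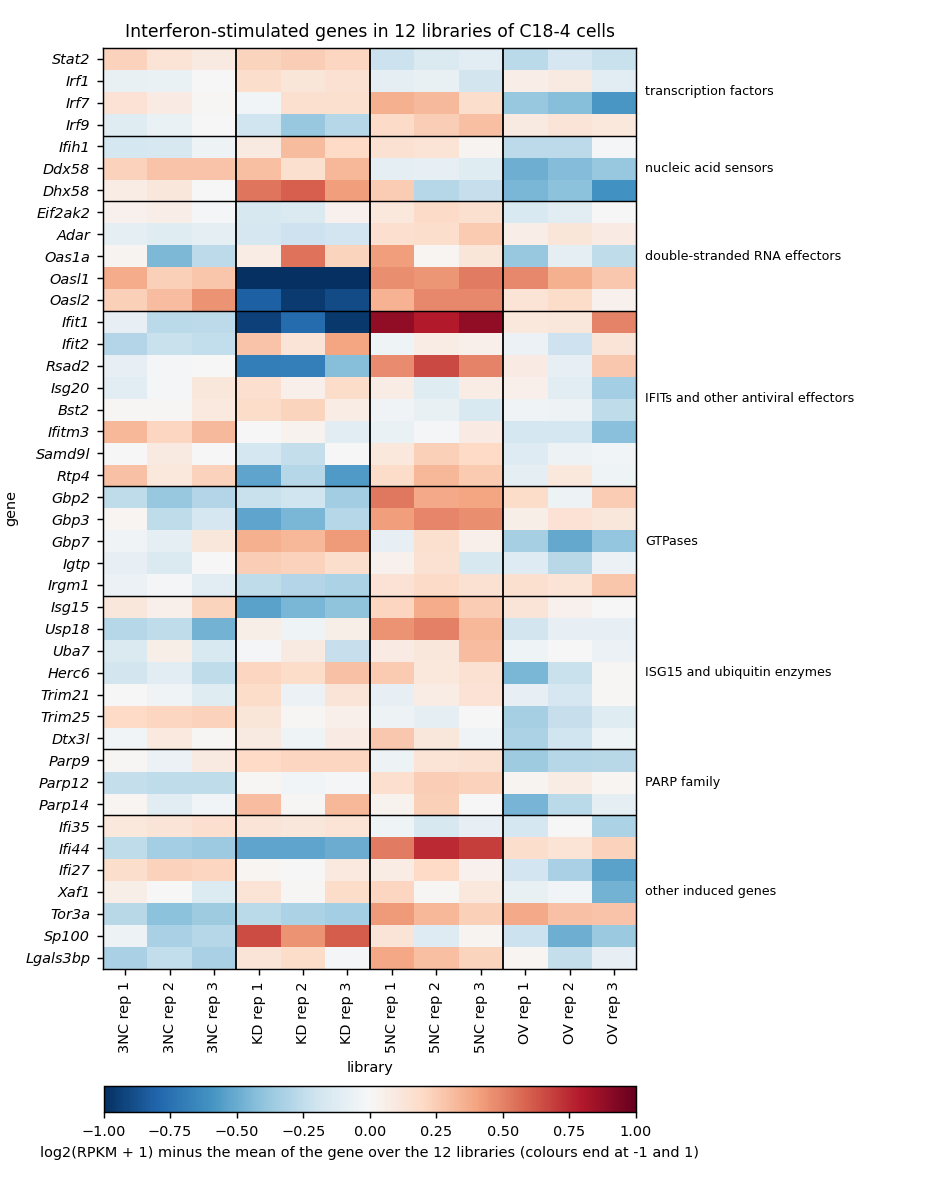
Log2(RPKM + 1) of the 42 tested genes (rows, by class) in the 12 libraries (columns, by group), each minus the gene's mean over all libraries. Blue is below and red above that mean. The KD columns are blue at Oasl1, Oasl2, Ifit1, Rsad2, Rtp4 and Isg15 and red at Sp100 and Dhx58, and the 5NC columns are red at Ifit1 and Ifi44.

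Among the 4 transcription factors, Irf7 carried the change in OV. IRF7 drives type I interferon genes and is itself induced by interferon. Its RPKM was 6.96, 6.78 and 6.04 in 5NC and 3.79, 3.63 and 3.15 in OV, with no overlap. The fall was -0.75 (SE 0.08, adjusted p = 7.76e-05). In 3NC it was 5.88, 5.59 and 5.28 and in KD 5.11, 5.96 and 5.97, where the groups overlapped (0.02, adjusted p = 0.857). The small rise in 5NC against 3NC of 0.20 (adjusted p = 0.0398) was lost without either 3NC replicate 2 or 3 or 5NC replicate 1 or 2, so the call rests on those libraries.

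The other factors changed little. IRF9, a DNA-binding part of the complex with STAT2, was at 7.61, 7.93 and 8.32 RPKM in 3NC and at 7.13, 6.19 and 6.66 in KD, a fall of -0.23 (SE 0.06, adjusted p = 0.00642). In 5NC its values of 9.66, 10.07 and 10.53 were above all those of 3NC (0.31, adjusted p = 0.00067), while OV, at 8.96, 9.22 and 9.08, did not pass (-0.14, adjusted p = 0.129). Stat2, its partner, moved the opposite way between the vectors. It was at 8.12, 7.53 and 7.24 RPKM in 3NC and 5.67, 6.02 and 6.17 in 5NC (-0.31, SE 0.06, adjusted p = 0.00059), and its KD and OV values overlapped those of their controls. Irf1, induced most strongly by interferon gamma, rose in KD from 35.72, 35.99 and 37.80 RPKM to 42.84, 41.21 and 42.10 (0.20, SE 0.06, adjusted p = 0.00699). Its OV values of 39.53, 40.17 and 34.73 overlapped those of 5NC, at 35.27, 35.76 and 33.17.

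The 3 tested nucleic acid sensors, cytosolic helicases that detect double-stranded RNA, all fell in OV, where 13.9% of all genes did, and 2 of them rose in KD, where 31.9% of all genes did. Dhx58 (LGP2), which modulates the other sensors, was at 2.66, 2.75 and 2.45 RPKM in 3NC and 4.03, 4.26 and 3.63 in KD (0.46, SE 0.12, adjusted p = 0.00397). In 5NC it was at 3.13, 1.85 and 1.95 and in OV at 1.52, 1.61 and 1.28 (-0.40, SE 0.12, adjusted p = 0.0261). The first 5NC library stood above the others, and the OV call was lost without 5NC replicate 1, OV replicate 1 or OV replicate 2.

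Ifih1 (MDA5), the sensor of long double-stranded RNA, rose in KD from 6.41, 6.50 and 7.08 RPKM to 7.91, 9.40 and 8.59 (0.33, SE 0.08, adjusted p = 0.00301). It fell from 8.28, 8.20 and 7.52 in 5NC to 5.96, 5.96 and 7.29 in OV (-0.29, SE 0.08, adjusted p = 0.0235), and that call was lost without OV replicate 1 or 2 or 5NC replicate 1 or 2. Its rise in 5NC against 3NC (0.23, adjusted p = 0.0236) was lost without 3NC replicate 1 or 2 or 5NC replicate 1 or 2. Ddx58 (RIG-I), which recognizes RNA with a 5′ triphosphate, showed no difference by the test in KD: 16.02, 16.69 and 16.61 RPKM in 3NC and 16.88, 15.16 and 17.24 in KD. It was lower in 5NC, at 12.58, 12.69 and 12.32 (-0.37, SE 0.06, adjusted p = 6.98e-05), and lower again in OV, at 9.35, 9.73 and 10.14 (-0.33, SE 0.06, adjusted p = 0.00222).

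The effectors of double-stranded RNA held the largest changes of KD. Oasl1 (NCBI gene 231655), an oligoadenylate synthetase-like protein known in the mouse to limit translation of IRF7, was at 18.18, 16.52 and 16.98 RPKM in 3NC and at 5.85, 6.44 and 4.95 in KD. The fall was -1.44 (SE 0.08, adjusted p = 1.37e-09). It was at 19.46, 19.17 and 20.21 in 5NC and 19.74, 17.97 and 16.90 in OV, where the groups overlapped (-0.10, adjusted p = 0.346). The 3 KD libraries thus stood below all 9 others.

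Oasl2 (NCBI gene 23962) followed the same order in KD, from 12.53, 13.16 and 14.59 RPKM to 5.5, 4.9 and 5.14 (-1.22, SE 0.07, adjusted p = 2.18e-09). It also fell in OV, from 13.58, 14.98 and 14.97 to 11.58, 12.02 and 10.78 (-0.32, SE 0.07, adjusted p = 0.00724). Oas1a, a synthetase whose product activates the ribonuclease RNase L, moved the other way in KD. Its RPKM was 3.36, 2.14 and 2.57 in 3NC and 3.51, 5.26 and 4.01 in KD (0.51, SE 0.14, adjusted p = 0.00599), and the libraries of each group spread widely. In 5NC it was at 4.72, 3.35 and 3.67 and in OV at 2.30, 3.03 and 2.60 (-0.43, SE 0.14, adjusted p = 0.0412). The OV call was lost without any one of the 5NC or OV libraries or 3NC replicate 3. The call in 5NC against 3NC (0.42, adjusted p = 0.0193) was lost without 3NC replicate 2 or 3 or 5NC replicate 1.

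The remaining effectors had small changes. Eif2ak2 (PKR), the kinase that stops translation on double-stranded RNA, fell in OV from 23.84, 25.28 and 24.69 RPKM to 19.72, 20.33 and 21.93 (-0.24, SE 0.06, adjusted p = 0.0144), a call lost without 5NC replicate 2, OV replicate 1 or OV replicate 2. Adar, the enzyme that edits adenosine in double-stranded RNA, rose from 8.71, 8.52 and 8.64 RPKM in 3NC to 10.64, 10.66 and 11.37 in 5NC (0.30, SE 0.05, adjusted p = 0.00019) and passed in neither other comparison. Reads of Oas1a, Oasl1, Oasl2 and their close copies may be divided among them by the counting, which leaves the single values uncertain.

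The IFIT genes and other antiviral effectors included the largest difference between the control vectors. Ifit1 (NCBI gene 15957), which binds viral RNA that lacks a host cap, was at 1.61, 1.29 and 1.31 RPKM in 3NC and 4.12, 3.79 and 4.10 in 5NC (1.06, SE 0.10, adjusted p = 6.46e-07). In KD it was at 0.45, 0.62 and 0.42 (-0.68, SE 0.10, adjusted p = 5.88e-05). In OV it was at 1.98, 1.99 and 2.90 (-0.62, SE 0.10, adjusted p = 0.00206). Each group was apart from its control, and the 3rd OV library was above the other 2.

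Rsad2 (viperin), a radical SAM enzyme that blocks replication of many viruses, had the same order of groups as Ifit1. It was at 1.05, 1.14 and 1.17 RPKM in 3NC, 0.34, 0.35 and 0.61 in KD, 2.01, 2.42 and 2.06 in 5NC and 1.29, 1.05 and 1.61 in OV. The changes were -0.57 in KD (SE 0.10, adjusted p = 0.000253), 0.58 in 5NC against 3NC (SE 0.10, adjusted p = 0.000225) and -0.45 in OV (SE 0.10, adjusted p = 0.00843). Rtp4, an induced chaperone of membrane receptors, fell in KD from 3.64, 3.08 and 3.45 RPKM to 1.64, 2.11 and 1.56 (-0.67, SE 0.09, adjusted p = 1.79e-05). Its values were 3.32, 3.79 and 3.56 in 5NC and 2.55, 3.09 and 2.69 in OV, where the call (-0.27, adjusted p = 0.0432) was lost without any one of the 5NC or OV libraries, 3NC replicate 1, 3NC replicate 3 or KD replicate 1.

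Ifitm3 was lower in KD, in 5NC and in OV. Its RPKM was 203.71, 187.60 and 203.02 in 3NC, 161.14, 166.29 and 149.32 in KD (-0.32, SE 0.07, adjusted p = 0.000907), and 154.15, 160.16 and 171.12 in 5NC (-0.29, SE 0.07, adjusted p = 0.00171). In OV it was 143.21, 142.90 and 120.72 (-0.26, SE 0.07, adjusted p = 0.0161), a call lost without 5NC replicate 3. Ifit2, in contrast to Ifit1, rose in KD, from 13.57 ± 0.36 to 20.03 ± 1.88 RPKM (SD, n = 3 each), a change of 0.53 (SE 0.08, adjusted p = 6.1e-05). It was higher in 5NC than in 3NC (0.29, adjusted p = 0.00726), and OV overlapped 5NC (-0.07, adjusted p = 0.536). Isg20, an exoribonuclease, and Bst2 passed in none of the 3 comparisons, and Samd9l fell only slightly, in OV (-0.25, adjusted p = 0.0271), a call lost without 5NC replicate 2 or 3 or OV replicate 1 or 2.

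Of the 5 tested GTPases, 3 rose in 5NC against 3NC, 2 rose and 2 fell in KD, and 3 fell in OV. Over all genes the shares were 31.0% higher in 5NC against 3NC, 31.9% higher and 23.5% lower in KD, and 13.9% lower in OV. Guanylate-binding proteins and the immunity-related GTPases attack the vacuoles in which bacteria and parasites live. Gbp2 was at 1.88, 1.65 and 1.81 RPKM in 3NC, 1.95, 2.0 and 1.7 in KD and 3.97, 3.47 and 3.53 in 5NC. It differed between the vectors (0.74, SE 0.09, adjusted p = 4.47e-06), while KD overlapped 3NC. In OV it was at 2.91, 2.33 and 3.11 (-0.30, SE 0.09, adjusted p = 0.0258), a call lost without any one of the 5NC libraries, OV replicate 1 or OV replicate 2.

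Gbp3 rose between the vectors like Gbp2, from 2.72, 2.08 and 2.27 RPKM in 3NC to 3.90, 4.14 and 4.07 in 5NC (0.59, SE 0.09, adjusted p = 3.18e-05). It was at 2.82, 3.05 and 2.97 in OV (-0.35, SE 0.09, adjusted p = 0.0116) and at 1.55, 1.67 and 2.01 in KD (-0.29, SE 0.09, adjusted p = 0.00916), the latter call being lost without 3NC replicate 1. Gbp7 went the opposite way in KD, from 2.12, 1.98 and 2.46 RPKM to 3.09, 3.03 and 3.29 (0.38, SE 0.09, adjusted p = 0.00168). In OV it fell to 1.54, 1.24 and 1.44 from 2.02, 2.57 and 2.30 in 5NC (-0.45, SE 0.09, adjusted p = 0.00379). Reads of these close relatives may be shared in the counting.

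The immunity-related GTPases Igtp and Irgm1 changed in opposite directions in KD. Igtp was at 5.78, 5.48 and 6.19 RPKM in 3NC and 7.50, 7.41 and 7.09 in KD (0.29, SE 0.08, adjusted p = 0.00787). Irgm1 was at 10.41, 10.68 and 9.93 in 3NC and 8.93, 8.65 and 8.5 in KD (-0.23, SE 0.06, adjusted p = 0.00336). Irgm1 was higher in 5NC, at 12.08, 12.56 and 12.14 (0.23, adjusted p = 0.00333), and neither gene passed in OV.

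ISG15 and the ubiquitin enzymes were split. Isg15, the modifier itself, fell in KD from 37.03, 35.46 and 40.02 RPKM to 23.23, 24.53 and 25.65 (-0.60, SE 0.06, adjusted p = 9.57e-07), with the KD libraries below all others. In 5NC it was at 39.80, 44.44 and 40.90 and in OV at 37.32, 35.24 and 33.98 (-0.23, SE 0.06, adjusted p = 0.0178), a call lost without 5NC replicate 2 or OV replicate 2. The difference between the vectors was borderline (0.15, adjusted p = 0.0442) and was lost without 3NC replicate 1, 3NC replicate 2, 5NC replicate 2, 5NC replicate 3, KD replicate 2 or OV replicate 2.

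Usp18, which removes ISG15 from proteins and damps the type I receptor, moved against Isg15 in KD. It was at 1.92, 1.98 and 1.56 RPKM in 3NC, 2.69, 2.44 and 2.69 in KD, 3.85, 4.02 and 3.46 in 5NC and 2.12, 2.36 and 2.36 in OV. The changes were 0.36 in KD (SE 0.08, adjusted p = 0.00158), 0.76 in 5NC against 3NC (SE 0.08, adjusted p = 1.37e-06) and -0.54 in OV (SE 0.08, adjusted p = 0.000914). The 5NC libraries stood above all others, KD included.

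Herc6, the mouse ligase for ISG15, rose in KD from 6.42, 6.84 and 6.05 RPKM to 8.75, 8.54 and 9.30 (0.41, SE 0.10, adjusted p = 0.00199). It was at 9.08, 8.07 and 8.33 in 5NC and at 5.13, 6.21 and 7.49 in OV (-0.39, SE 0.10, adjusted p = 0.0114), a call lost without OV replicate 1. Trim25, a ubiquitin ligase that acts on RIG-I, was at 20.89, 21.22 and 21.37 RPKM in 3NC and 17.46, 16.94 and 18.01 in 5NC (-0.26, SE 0.06, adjusted p = 0.00127). Its falls in KD (-0.15, adjusted p = 0.0356), to 19.82, 18.28 and 18.73, and in OV (-0.18, adjusted p = 0.0394), to 14.20, 15.26 and 16.57, were small. The KD call was lost without any one of the 3NC libraries, KD replicate 2 or KD replicate 3, and the OV call without any one of 8 libraries, all those of 3NC and 5NC and OV replicates 1 and 2. Dtx3l, a ubiquitin ligase that pairs with PARP9, fell in OV from 4.01, 3.51 and 3.07 RPKM to 2.34, 2.63 and 3.04 (-0.30, SE 0.09, adjusted p = 0.0292), a call lost without 5NC replicate 1 or 2 or OV replicate 1 or 2. Trim21 passed in no comparison, and Uba7, the activating enzyme for ISG15, only in 5NC against 3NC (0.25, adjusted p = 0.0463), a call lost without any one of 7 libraries, 3NC replicates 1 and 3, 5NC replicates 2 and 3, KD replicate 1 and OV replicates 1 and 2. Outside 5NC only 3NC replicate 2 (1.04) and KD replicate 2 (1.08) reached 1 RPKM. Uba7 thus passed the filter through 5NC, where it was high, and its call is no support for a difference.

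The 3 PARP family genes, which belong to the ADP-ribosyltransferases, all fell in OV, and 2 rose in KD, against 13.9% and 31.9% of all genes. Parp9 was at 8.10, 7.67 and 8.59 RPKM in 3NC and 9.38, 9.48 and 9.44 in KD (0.20, SE 0.07, adjusted p = 0.0224), a call lost without 3NC replicate 1, 3NC replicate 2 or KD replicate 2. It was at 7.69, 8.94 and 9.04 in 5NC and 6.03, 6.40 and 6.45 in OV (-0.39, SE 0.07, adjusted p = 0.00232). Parp12 had tight replicates, at 13.63, 13.45 and 13.49 RPKM in 3NC, 16.40, 15.91 and 16.12 in KD, 18.38, 19.50 and 19.25 in 5NC and 16.62, 17.14 and 16.46 in OV. It rose in KD (0.24, SE 0.05, adjusted p = 0.000589) and in 5NC against 3NC (0.46, SE 0.05, adjusted p = 9.73e-07) and fell in OV (-0.18, SE 0.05, adjusted p = 0.0193), the OV call being lost without 5NC replicate 2 or 3 or OV replicate 1. Parp14 fell in OV, from 1.86, 2.28 and 1.80 RPKM to 1.02, 1.31 and 1.62 (-0.37, SE 0.11, adjusted p = 0.0287), a call lost without 5NC replicate 1 or 2 or OV replicate 1 or 2.

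The 7 other induced genes included the largest rise of KD. Sp100, a part of the nuclear bodies that silence viral DNA, was at 2.23, 1.68 and 1.74 RPKM in 3NC and 4.26, 3.58 and 4.08 in KD (0.79, SE 0.10, adjusted p = 1.04e-05). It was at 2.66, 2.06 and 2.41 in 5NC and at 1.89, 1.38 and 1.59 in OV (-0.37, SE 0.10, adjusted p = 0.0205), a call lost without 5NC replicate 1, 5NC replicate 3 or OV replicate 2. Lgals3bp, a secreted glycoprotein, was at 4.46, 4.77 and 4.45 in 3NC and 6.47, 6.77 and 5.75 in KD (0.40, SE 0.08, adjusted p = 0.00059). It reached 7.93, 7.41 and 7.0 in 5NC (0.60, adjusted p = 1.24e-05) and fell to 5.94, 4.80 and 5.45 in OV (-0.40, SE 0.08, adjusted p = 0.00427).

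Ifi44 passed the filter through 5NC alone, where it was at 1.07, 1.41 and 1.33 RPKM. It was at 0.21, 0.14 and 0.12 in 3NC, was listed at 0 in KD replicates 1 and 2 and at 0.02 in replicate 3, and was at 0.63, 0.58 and 0.69 in OV. Because the filter let it in only where it was high, its call in 5NC against 3NC (0.97, SE 0.09, adjusted p = 1.9e-07) is no support for a difference, and the same holds for OV against 5NC, where it was lower by -0.47 (SE 0.09). Without it 18 members were higher there and 27 lower in OV.

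Tor3a, a torsin ATPase, separated the 2 vectors and nothing else. Its RPKM was 8.06, 7.25 and 7.57 in 3NC and 8.10, 7.79 and 7.63 in KD, against 13.75, 12.76 and 11.95 in 5NC and 13.27, 12.43 and 12.36 in OV. The difference between the vectors was 0.68 (SE 0.06, adjusted p = 3.59e-07), and those of KD (0.04, adjusted p = 0.652) and OV (-0.01, adjusted p = 0.906) did not pass. Ifi27, a small membrane protein, fell in OV from 75.06, 81.75 and 73.19 RPKM to 62.35, 56.61 and 48.74 (-0.45, SE 0.07, adjusted p = 0.00118). In 3NC it was at 80.60, 83.71 and 82.95 and in KD at 71.98, 70.96 and 76.21 (-0.17, adjusted p = 0.05), a call at the threshold that was lost without any one of the 3NC libraries, KD replicates 1 or 2, 5NC replicates 1 or 3 or OV replicate 2. Xaf1, a gene linked to cell death, fell in OV (-0.30, adjusted p = 0.046), a call lost without any one of 9 libraries, all those of 3NC and 5NC, KD replicate 1 and OV replicates 1 and 3, and Ifi35 fell in 5NC against 3NC (-0.23, adjusted p = 0.00788).

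**Figure D4:**
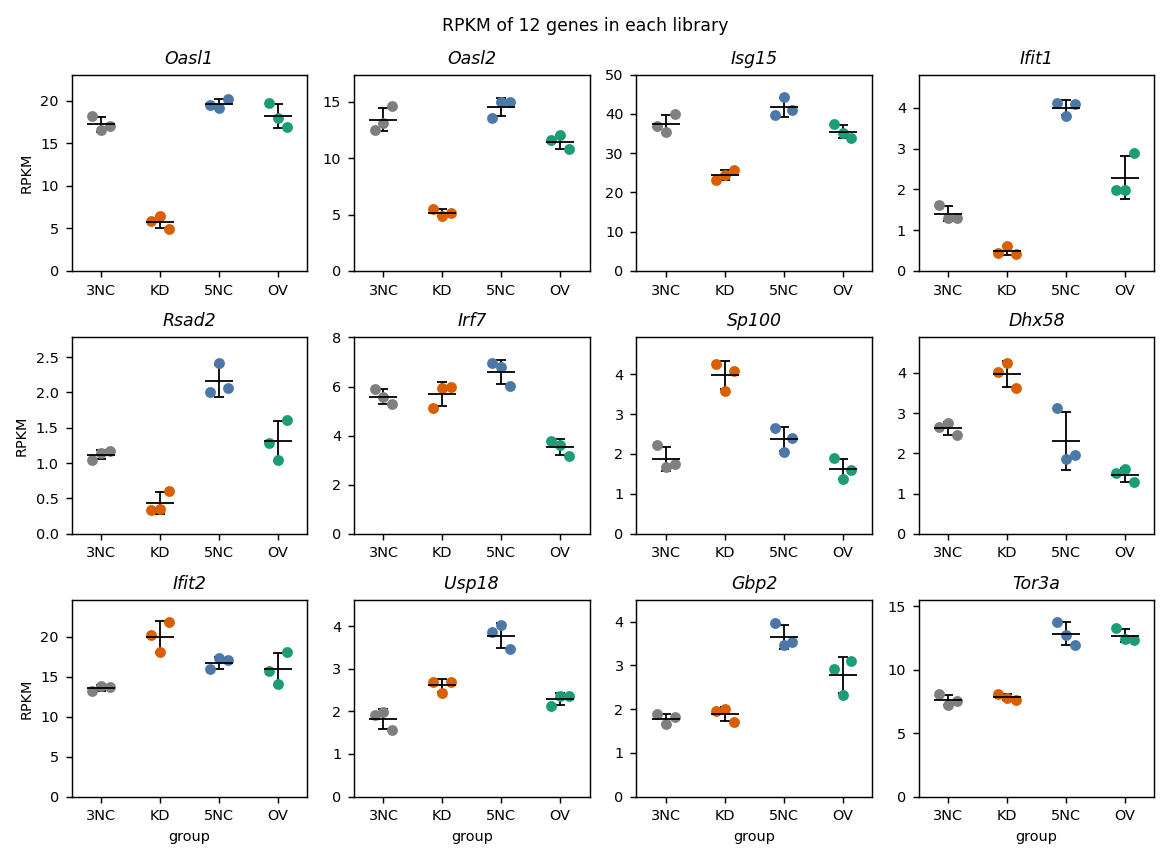
RPKM of 12 members in each library (points) with the group mean (line) and SD (bars, n = 3), every axis starting at 0. The KD points of Oasl1, Oasl2 and Isg15 lie below those of the other groups, those of Sp100 lie above them, and Tor3a is higher in both LV5 groups, 5NC and OV.

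KD against 3NC and OV against 5NC share no library, so their effects on a member could be tested against each other within the fit. The effect of KD minus that of OV was above 0 by the test in 18 of 42 members and below 0 in 5, against 31.2% and 20.7% of all genes, with a median of 0.27 over the members and 0.07 over all genes. A set of 10 members (23.8%, against 6.05% of all genes) rose in KD and fell in OV: Ifih1, Dhx58, Oas1a, Gbp7, Usp18, Herc6, Parp9, Parp12, Sp100 and Lgals3bp. Another 9 (21.4%, against 1.98%) fell in both: Oasl2, Ifit1, Rsad2, Ifitm3, Rtp4, Gbp3, Isg15, Trim25 and Ifi27. A further 9 (21.4%, against 5.92%) fell in OV and were not called in KD, and 8 (19%, against 35.7%) were called in neither. Only called in KD were 3 that rose and 3 that fell (7.14% each, against 24.4% and 17.8%).

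By class, the difference was above 0 in 3 of 3 sensors, in 3 of 3 PARP genes, in 3 of 5 GTPases, in 4 of 7 other induced genes, in 2 of 7 ISG15 and ubiquitin genes, in 1 of 4 transcription factors, in 1 of 5 effectors of double-stranded RNA and in 1 of 8 IFIT and antiviral genes. Over all genes 31.2% were above 0, and these classes are small. It was below 0 for Oasl1, Oasl2, Isg15, Rtp4 and Irgm1. For Ifit1 and Rsad2, which fell in both comparisons, the test found no difference between the effects. No member rose by the test in OV, and none rose in both.

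**Figure D5:**
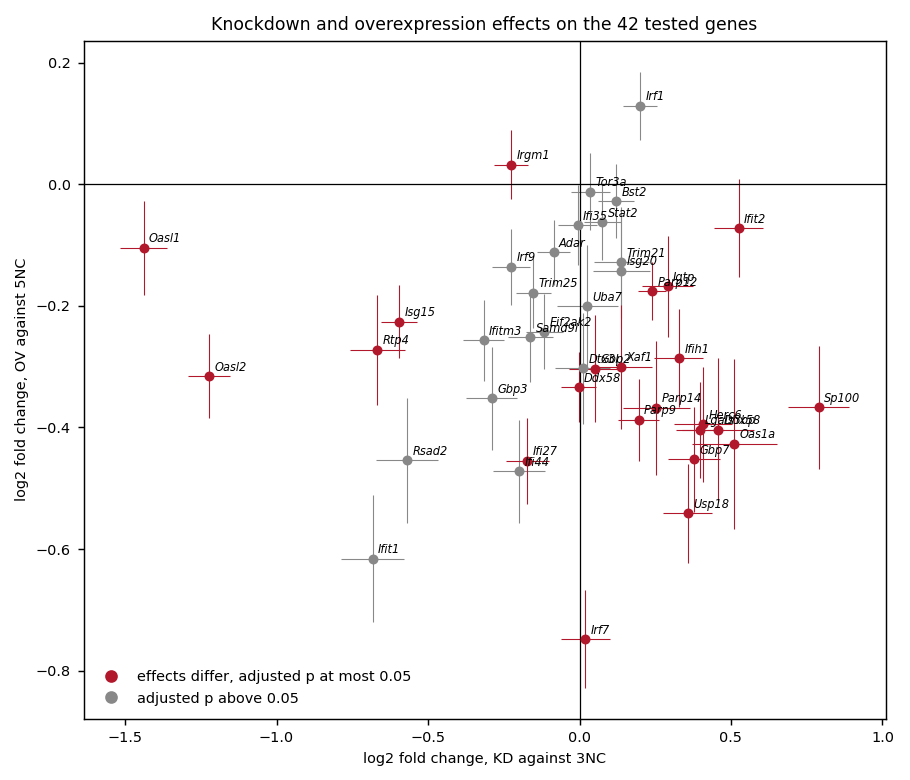
Log2 fold change of RPKM + 1 in KD against 3NC (horizontal) and OV against 5NC (vertical) for the 42 tested genes, with standard errors. Red points differ between the comparisons (adjusted p at most 0.05). Sp100 lies farthest right, Oasl1 and Oasl2 farthest left, Irf7 lowest, and only Irf1 and Irgm1 lie above the horizontal line at 0.

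The choice of control matters for some members. With 5NC in place of 3NC as the control of KD, 10 members were higher (23.8%, against 34% of all genes) and 18 lower (42.9%, against 31.4%) in KD. Of the 13 rises and 12 falls called against 3NC, 6 and 9 were called in the same direction against 5NC. The other calls were lost or turned, among them Usp18, Parp12 and Lgals3bp of the set that rose in KD and fell in OV. The median turned from 0.03 to -0.07. The called direction turned for Usp18 (to -0.40), Trim25 (to 0.11, not past the test), Parp12 (to -0.23) and Lgals3bp (to -0.21). Ddx58 (0.36), Gbp2 (-0.69) and Tor3a (-0.64), which had no call against 3NC, were called against 5NC. The falls of Oasl1, Oasl2, Ifit1, Rsad2, Rtp4 and Isg15 in KD kept their direction and stayed past the test, and so did the rise of Sp100. The control was changed for KD only, and OV was not tested against 3NC. Some members called lower in OV than in 5NC had OV libraries above all those of 3NC, such as Ifit1, Gbp2 and Parp12. Others, such as Irf7 and Ddx58, had OV libraries below all those of 3NC. The falls in OV are thus falls from the level of 5NC.

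The tested members were also read by whether the ISRE letters stood in the promoter. In KD, 4 of 16 with the letters rose and 6 fell, and 6 of 19 without them rose and 4 fell, with medians of 0.02 in both sets. In OV 11 of 16 and 11 of 19 fell, with medians of -0.27 and -0.20. In 5NC against 3NC 8 of 16 rose and 3 fell with the letters, and 9 of 19 rose and 2 fell without them, with medians of 0.14 and 0.20. Over all genes 31.9% rose and 23.5% fell in KD, 13.9% fell in OV, and 31.0% rose and 25.6% fell in 5NC against 3NC. These counts are descriptions, with no test of a difference between the sets.

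Other genes of the pathway were read from lists of genes by role. Of 20 listed interferon genes 4 had a row, and none passed the filter: Ifnb1 was listed at 0 in 11 libraries and at 0.10 RPKM in 5NC replicate 3. Of 11 receptor and JAK-STAT genes, 3 rose and 1 fell in KD, 4 rose and 4 fell in 5NC against 3NC, and none rose and 3 fell in OV. These are 27.3% and 9.09%, 36.4% and 36.4%, and 0% and 27.3%, beside all-gene shares of 31.9% and 23.5%, 31.0% and 25.6%, and 8.07% and 13.9%. Tyk2, a receptor kinase, rose in KD (0.52, SE 0.07, adjusted p = 1.39e-05), and Jak2 (-0.50, adjusted p = 2.85e-05) and Stat3 (-0.32, adjusted p = 1.81e-05) fell in 5NC against 3NC.

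Of 12 tested pathway inhibitors none rose and 3 fell in KD, 4 rose and 3 fell in 5NC against 3NC, and none rose and 1 fell in OV. The shares were 0% and 25%, 33.3% and 25%, and 0% and 8.33%, to be read against the same all-gene shares. Irf2bp2, a corepressor partner of IRF2, fell in KD from 10.91, 10.16 and 10.72 RPKM to 5.30, 5.26 and 5.73 (-0.85, SE 0.06, adjusted p = 4.78e-08). Pias1, a SUMO ligase that inhibits STAT signalling, fell in 5NC against 3NC (-0.51, adjusted p = 8.58e-06), Irf2bp1 rose there (0.35, adjusted p = 0.00889), and Foxo3 fell in OV (-0.30, adjusted p = 0.00891).

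Of 21 tested genes of upstream sensing and signalling, 3 rose and 6 fell in KD, 2 rose and 8 fell in 5NC against 3NC, and 1 fell in OV, or 14.3% and 28.6%, 9.52% and 38.1%, and 4.76% lower, read against the same all-gene shares. Tlr3, the endosomal receptor of double-stranded RNA, rose in KD from 2.18, 3.01 and 2.41 RPKM to 5.36, 4.67 and 5.69 (0.82, SE 0.09, adjusted p = 2.93e-06). Ddx3x, a helicase that assists the signal, fell in KD (-0.64, adjusted p = 3.81e-05), Irf5 fell in 5NC against 3NC (-0.67, adjusted p = 9.7e-06), and Trim56 fell in OV (-0.75, SE 0.16, adjusted p = 0.00647). The OV libraries of Trim56 spread from 3.62 to 7.59 RPKM.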

How the data were processed

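RNA-seq was run on 12 libraries of C18-4 cells in 4 groups of 3. The authors aligned reads with SOAPaligner and deposited 1 table of gene values as RPKM, that is, scaled by gene length and by mapped reads. The genome build is not given in the sources used here. Groups came from the sample titles and no column of other samples was present. No sample was dropped. From the RPKM, log2(RPKM + 1) was taken, a gene was kept where 3 or more libraries reached 1 RPKM (11435 of 17576 rows), and 1 model with a term for each group was fitted to all libraries with limma 3.58.1 in R 4.3.3 (empirical Bayes with a trend). Two-sided p-values were adjusted by Benjamini-Hochberg over all tested genes. A single value of 3 against 3 libraries cannot reach an exact permutation p below 0.1, so only the model was used. RPKM is not a count, so no count test was run, and the method named by the study for its calls, which needs reads, was not repeated. The code was tested on simulated data.

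The members and all gene lists were chosen with earlier results of these data known. Members past the threshold of the study and, in each class, up to 3 with the largest called change in each comparison are given by library. From each other list up to 4 such genes are named. Promoters were RefSeq sequences of GRCm38.p6, read with Python 3.11.15 and used without any coordinate of the deposited table. Alternatives were a pseudocount of 0.1, no filter, quantile normalization, fitting each comparison to its own 6 libraries, the replicate number as a block, each library left out, the other control for KD and the threshold of the study. Some items are not reported here.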

Additional observations from a re-analysis of the deposited data

Results flagged for a closer look

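The changes of 23 members differed between KD against 3NC and OV against 5NC by the test of the difference itself (limma, Benjamini-Hochberg adjusted over all tested genes). No group had more than 3 libraries, so single libraries were not tested for standing apart. The KD effect minus the OV effect, on the log2 scale, was above 0 for 18 members (42.9%, against 31.2% of all tested genes). For 5 members (11.9%, against 20.7%) the difference was below 0. Among those that rose in KD and fell in OV it was 1.16 for Sp100 (adjusted p = 1.15e-05), 0.94 for Oas1a (adjusted p = 0.00115), 0.90 for Usp18 (adjusted p = 1.5e-05), 0.86 for Dhx58 (adjusted p = 0.000576), 0.83 for Gbp7 (adjusted p = 5.6e-05), 0.80 for Herc6 (adjusted p = 0.000178), 0.80 for Lgals3bp (adjusted p = 3.57e-05), 0.61 for Ifih1 (adjusted p = 0.000439), 0.58 for Parp9 (adjusted p = 0.00014) and 0.42 for Parp12 (adjusted p = 0.000133).

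Among those not called in KD that fell in OV it was 0.77 for Irf7 (adjusted p = 5.83e-05), 0.62 for Parp14 (adjusted p = 0.00374), 0.44 for Xaf1 (adjusted p = 0.0187), 0.36 for Gbp2 (adjusted p = 0.0263) and 0.33 for Ddx58 (adjusted p = 0.00333). It was 0.60 for Ifit2 (adjusted p = 0.000528) and 0.46 for Igtp (adjusted p = 0.00445), which rose in KD and were not called in OV, and 0.28 for Ifi27 (adjusted p = 0.0278), which fell in both. It was below 0 for Oasl1 at -1.33 (adjusted p = 2.33e-07), Oasl2 at -0.91 (adjusted p = 3.36e-06), Rtp4 at -0.40 (adjusted p = 0.0175), Isg15 at -0.37 (adjusted p = 0.00208) and Irgm1 at -0.26 (adjusted p = 0.0142). Over 16 other settings, chosen after seeing the data, no sign changed; the difference stayed past the threshold in 10 for Gbp2, 12 for Ifi27, 14 for Xaf1 and 15 for Rtp4, and in all 16 for the other 19 members.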

How the results depend on the processing

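The threshold of the study was applied to the limma changes of RPKM + 1 and not by its own method. At it the members higher and lower numbered 1 and 0 in 5NC against 3NC, 0 and 2 in KD against 3NC, and 0 and 0 in OV against 5NC. After quantile normalization 15 members and 8.31% of all genes were lower in OV against 5NC. The cause was not tested. With each library left out in turn, members higher ranged from 15 to 22 and lower from 5 to 6 in 5NC against 3NC, from 12 to 15 and from 9 to 13 in KD against 3NC, and from 0 to 1 and from 15 to 28 in OV against 5NC; the difference of the KD and OV effects gave 17 to 19 higher and 4 to 5 lower. The all-gene shares moved too. In 5NC against 3NC 27.8% to 33.1% of all genes were higher and 22.2% to 27.8% lower. In KD against 3NC these were 28.4% to 34.3% and 20.5% to 25.4%, and in OV against 5NC 3.42% to 14.6% and 5.1% to 21.9%. With 5NC as the control of KD, 9 of the 34 members given by library changed sign. Irf7 and Dtx3l had no call against either control. The other 7, of which Ddx58, Gbp2 and Tor3a had no call against 3NC, were Ddx58 (0.36), Gbp2 (-0.69), Usp18 (-0.40), Trim25 (0.11), Parp12 (-0.23), Tor3a (-0.64) and Lgals3bp (-0.21).

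The replicate numbers were read as a possible pairing: deviations of libraries with the same number correlated between -0.178 and 0.176, so no strong pairing was seen. Deviations from means of 3 libraries cannot exclude a weak shared batch. With the replicate block, 18 members were higher and 5 lower in 5NC against 3NC, 13 and 11 in KD against 3NC, and 0 and 27 in OV against 5NC; the difference of the KD and OV effects gave 18 and 5. Of all genes 31% and 25.6%, 31.9% and 23.5%, and 7.77% and 14% were then called in these 3 comparisons. Of 1768 single-gene values under alternatives, 1602 stayed on the same side of the threshold, among them 21 sign changes of values with no call in either fit, 134 fell short of it, 25 newly passed it and 7 changed sign with a call in at least 1 of the fits. Without the filter, 49 members were tested, with 20 higher and 6 lower in 5NC against 3NC, 16 and 12 in KD against 3NC, and 0 and 22 in OV against 5NC, where 21.5% and 17.7%, 22.5% and 15.7%, and 4.06% and 6.81% of all 17008 genes then tested were called. Without absolute depth no counting interval could be given.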

Other observations

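Of 71 further interferon-stimulated genes listed, 46 were tested: 18 rose and 9 fell in KD against 3NC, 14 rose and 13 fell in 5NC against 3NC, and 2 rose and 18 fell in OV against 5NC, with medians of 0.11, -0.07 and -0.17 beside 0.04, 0.02 and -0.03 over all genes. In KD against 3NC these are 39.1% higher and 19.6% lower (all genes 31.9% and 23.5%), in 5NC against 3NC 30.4% and 28.3% (all genes 31.0% and 25.6%), which is near the background, and in OV against 5NC 4.35% and 39.1% (all genes 8.07% and 13.9%). Ccl5, a chemokine that draws T cells, had the largest change of KD in the list, from 39.20, 41.06 and 38.33 RPKM in 3NC to 11.45, 9.2 and 11.73 (-1.79, SE 0.09, adjusted p = 6.55e-10), and fell in OV from 33.64, 39.08 and 38.94 to 25.55, 20.67 and 22.14 (-0.69, SE 0.09, adjusted p = 0.000303). Ifi204, a DNA sensor of the HIN family, fell in KD (-1.22, adjusted p = 4.02e-08) and was lower in 5NC than in 3NC (-0.71, adjusted p = 9.56e-06). Gbp8, a further guanylate-binding protein, rose in KD from 0.90, 0.75 and 1.03 RPKM to 2.78, 2.80 and 2.36 (0.95, SE 0.09, adjusted p = 3.7e-07). Slfn2, of the Schlafen family, fell in KD (-0.55, adjusted p = 7.84e-05) and between the vectors (-1.16, adjusted p = 3.06e-08) and rose in OV (0.26, adjusted p = 0.0415).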
